A study of Mus musculus with 12 samples.

Results

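The 9 genes described here are the Slit ligands Slit1, Slit2 and Slit3, the Roundabout receptors Robo1, Robo2 and Robo3, and the Slit-Robo GTPase activating proteins Srgap1, Srgap2 and Srgap3, taken by symbol from the 46603 annotated genes counted in this series. The family was chosen from earlier results of the same libraries, in which Robo1 and Robo2 were among the genes lower in Chd8+/- libraries at P5, so the values of the P5 genotype contrast are given as a description and without a test. RNA-seq had been carried out on neocortices microdissected from embryos at E12.5 and from pups at postnatal day 5 (P5), with 3 libraries per genotype at each stage and 12 libraries in all. The genotypes were Chd8+/+ and Chd8+/-, both on a C57Bl/6J strain background. Chd8+/- mice carry 1 copy of a Chd8 allele whose loxP-flanked exon 3 was deleted in every tissue by a β-actin-driven Cre, and they were crossed with C57BL/6J mice. The E12.5 libraries came from both hemispheres and the P5 libraries from a single hemisphere. The labels do not say whether the libraries came from separate animals, so p-values measure only the spread between these libraries.

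Slits are large secreted proteins that bind Robo receptors on axons, migrating neurons and progenitors. Binding recruits srGAPs to the Robo cytoplasmic tail, where they act on small GTPases and on membrane shape, so that growing processes turn away from the Slit source. In the developing forebrain, the pathway is known for keeping axons out of the midline and the ventral telencephalon, for steering interneurons around the striatum and for the balance between progenitor renewal and neurogenesis. Robo3 differs from the other receptors in that it is best known from commissural neurons, where it counteracts repulsion before midline crossing.

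Each library held between 38774591 and 54695236 counts on genes. Values are given as CPM, counts scaled to a library of 1000000 counts, on 1 scale over all 12 libraries after TMM scaling, and the lowest count behind any of them was 202, for Slit3 in an E12.5 Chd8+/- library. Chd8 itself was at 229 to 235 CPM in E12.5 Chd8+/+ and 161 to 167 in E12.5 Chd8+/- libraries, and at 145 to 151 and 95.0 to 98.6 CPM at P5. The cortical marker Emx1 was present in every library, at 22.3 CPM or more. E12.5 Chd8+/- replicate 2 stood apart from the other E12.5 libraries. It had 156 CPM of Tcf7l2, a marker of the dorsal diencephalon, against 23.7 to 29.7 CPM in the other E12.5 libraries, and 35.2 CPM of Emx1 against 46.9 to 53.8 CPM. Results that rest on this library are given with and without it. Because the stages were counted in separate tables and dissected differently, development and these differences cannot be told apart in any comparison of stages. In whole tissue, fewer cells of a type and less RNA per cell cannot be told apart either.

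The Robo promoters are shown because these genes diverged most between the stages, each as 300 bases around the RefSeq start (GRCm38.p6), with CG dinucleotides in capitals. Of the 9 genes, 8 had an entry in the promoter table. Robo1 and Robo2 lie on chromosome 16 on opposite strands, 846 kb apart, with 1 annotated gene between them, and Robo3 lies on chromosome 9.
Robo1, chr16:72662899-72663198 (+): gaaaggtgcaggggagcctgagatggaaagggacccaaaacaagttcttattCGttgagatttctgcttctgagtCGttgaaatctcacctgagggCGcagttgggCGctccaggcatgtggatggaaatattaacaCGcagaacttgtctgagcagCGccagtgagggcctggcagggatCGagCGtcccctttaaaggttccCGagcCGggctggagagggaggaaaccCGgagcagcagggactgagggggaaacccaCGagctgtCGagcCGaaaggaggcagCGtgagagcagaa
Robo2, chr16:74411776-74412075 (-): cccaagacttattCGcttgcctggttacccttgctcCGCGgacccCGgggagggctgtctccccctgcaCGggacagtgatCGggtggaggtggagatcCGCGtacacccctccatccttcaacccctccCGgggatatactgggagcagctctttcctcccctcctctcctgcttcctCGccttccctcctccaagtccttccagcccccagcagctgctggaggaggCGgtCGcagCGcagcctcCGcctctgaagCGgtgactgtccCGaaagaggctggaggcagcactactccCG
Robo3, chr9:37433126-37433425 (-): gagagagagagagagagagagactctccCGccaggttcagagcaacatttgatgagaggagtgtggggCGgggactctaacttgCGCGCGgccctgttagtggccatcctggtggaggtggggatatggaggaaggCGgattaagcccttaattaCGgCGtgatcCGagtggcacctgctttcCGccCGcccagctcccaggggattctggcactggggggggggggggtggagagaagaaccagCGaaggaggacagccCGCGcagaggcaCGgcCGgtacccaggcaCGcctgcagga
These windows hold 15, 17 and 17 CG dinucleotides, against a median of 7 over the 32851 promoters of the table. At least 17 were present in 31.4% of all promoters. Neither strand of any of the 3 windows held TATAAA, which 13.6% of all promoters held. RefSeq lists a further pair of Robo2 starts, 681 and 1035 kb upstream of the start shown. Both lie outside the gene model used for counting, so the Robo2 values cover exons from chr16:73892306 to 74411825 only.

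Slit2 and Slit3 each carry in an intron a copy of the microRNA gene for miR-218-5p, which is known to act on Robo receptor transcripts. The mature sequence in RefSeq is the same for both copies, at chr5:48223966-48223986 in Slit2 and chr11:35616840-35616860 in Slit3 (GRCm38.p6, + strand), and its seed, bases 2 to 8, is in capitals.
miR-218-5p: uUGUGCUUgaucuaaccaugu
The motif AAGCACA, which pairs with this seed, was searched on the transcript strand of the longest annotated 3′ UTR of each gene (GENCODE M21, GRCm38). It was present in all 3 Robo genes, in Slit2, Srgap2 and Srgap3, and was not found in those of Slit1, Slit3 and Srgap1. Of 21020 genes with an annotated 3′ UTR, 13.8% held it. Among 3′ UTRs of 0.8 to 1.25 times the same length, the share was 18.5% for Robo1, 38.0% for Robo2, 3.09% for Robo3, 33.5% for Slit2, 38.4% for Srgap2 and 42.5% for Srgap3. For the genes without the motif it was 11.6% for Slit1, 3.21% for Slit3 and 40.7% for Srgap1. The Robo matches are shown with the match in capitals, since the hosts of this microRNA moved in opposite directions between the stages.
Robo1, chr16:73045333-73045359 (+): tttttttggttttaaAAGCACAatcac
Robo2, first, chr16:73895354-73895380 (-): attttatttggtgatAAGCACAaatct
Robo2, second, chr16:73893028-73893054 (-): agtcacggcagacccAAGCACAgcttc
Robo3, chr9:37416240-37416266 (-): gcttgtgactcactgAAGCACActgtc
The libraries were selected for mRNA, and the hairpin genes had at most 2 counts in any library, so mature miR-218-5p was not measured here.

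The first comparison asked how the pathway differed between E12.5 and P5 within each genotype. In Chd8+/+ libraries, Robo2, Slit1, Slit3, Srgap1, Srgap2 and Srgap3 rose and Robo3 and Slit2 fell, while Robo1 did not pass the test. Robo3 was 5.61-fold lower at P5 and Slit3 3.601-fold higher. With edgeR's quasi-likelihood test over 19676 genes, 6 of 9 were called higher at P5, against 41.4% of all genes tested, and 2 were called lower, against 41.7%. In Chd8+/- libraries, 6 were called higher, against 41.3% of all genes, and 3 lower, against 41.6%. Most genes of the neocortex passed this test, so the counts alone say little about the family, and the sizes of the changes are given for each gene. The P5 levels of Robo1 and Robo2, low in Chd8+/- libraries, are among the values by which the family was chosen. The changes of Robo1 and Robo2 in Chd8+/- libraries are therefore given without a p-value, and nothing is read from their part in these counts. Their Chd8+/+ levels at P5 entered that contrast too, so the tests in Chd8+/+ libraries are not wholly independent of the choice. The median of the absolute log2 fold changes (log2FC) was 1.19 over the 9 genes and 0.93 over all genes tested in Chd8+/+ libraries, and 1.13 and 0.93 in Chd8+/- libraries.

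Robo1 (chr16:72663149-73046095, + strand) encodes a receptor of cortical neurons, their progenitors and migrating interneurons. It was at 161, 168 and 169 CPM in the E12.5 Chd8+/+ libraries and at 151, 158 and 151 CPM in the P5 Chd8+/+ libraries. All P5 values lay below all E12.5 values, but by little, with a log2FC of -0.11 (SE 0.0649, adjusted p = 0.124). In Chd8+/- libraries it was at 170.3, 199 and 160.1 CPM at E12.5 and 118, 129.9 and 128 CPM at P5. The log2FC was -0.49 (SE 0.0653), and was -0.40 without E12.5 Chd8+/- replicate 2, which had the highest value. The Chd8+/+ change passed the threshold without E12.5 Chd8+/+ replicate 1, at -0.16 (adjusted p = 0.0483), and without E12.5 Chd8+/- replicate 2, which entered the same fit, at -0.12 (adjusted p = 0.0197). Over all alternatives of this comparison, its adjusted p ran from 4.50e-05, with an offset for gene length, to 0.372. That offset moved the median of all genes by -0.26.

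Robo2 (chr16:73892306-74411825, - strand), a receptor that shares its Slit ligands with Robo1, was at 104, 118 and 104 CPM in the E12.5 Chd8+/+ libraries and at 277.7, 291 and 263 CPM in the P5 Chd8+/+ libraries. It rose 2.55-fold, a log2FC of 1.35 (SE 0.0657, adjusted p = 5.70e-11). Chd8+/- libraries went from 121, 104 and 111 CPM to 239, 240.5 and 259 CPM. The difference was 1.13 (SE 0.0655) on the log2 scale, and no P5 library of either genotype overlapped an E12.5 library.

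Robo3 (chr9:37415669-37433163, - strand), the divergent receptor of commissural neurons, went the other way. It was at 107, 72.8 and 68.8 CPM in the E12.5 Chd8+/+ libraries, where replicate 1 was well above the rest, and at 14.5, 11.8 and 18.03 CPM in the P5 Chd8+/+ libraries. The log2FC was -2.49 (SE 0.169, adjusted p = 2.93e-09), and -2.28 without E12.5 Chd8+/+ replicate 1. Robo3 in Chd8+/- libraries was at 59.9, 68.1 and 69.8 CPM at E12.5 and 17.4, 19.2 and 15.8 CPM at P5, a log2FC of -1.92 (SE 0.166, adjusted p = 5.24e-08). This was the largest fall of any of the 9 genes in both genotypes.

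Among the ligands, Slit1 (chr19:41600257-41743665, - strand), the Slit whose expression is largely restricted to the nervous system, rose. It was at 53.2, 60.2 and 57.2 CPM in E12.5 Chd8+/+ and 97.7, 97.1 and 103 CPM in P5 Chd8+/+ libraries, a log2FC of 0.80 (SE 0.0830, adjusted p = 4.00e-07). Slit1 in Chd8+/- libraries was at 58.0, 45.2 and 58.3 CPM and 84.7, 95.7 and 85.7 CPM, a change of 0.72 (SE 0.0835, adjusted p = 1.40e-06). The lowest of these 12 values was that of E12.5 Chd8+/- replicate 2, and the Chd8+/- change was 0.61 (adjusted p = 4.50e-07) without it.

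Slit2 (chr5:47983138-48307733, + strand), a midline and ventral forebrain repellent, fell over the same interval. Its Chd8+/+ libraries were at 92.9, 87.0 and 102 CPM at E12.5 and 41.8, 40.9 and 39.4 CPM at P5. The log2FC was -1.20 (SE 0.0715, adjusted p = 6.08e-10). Its Chd8+/- libraries were at 94.9, 105 and 90.0 CPM and 34.0, 38.5 and 39.2 CPM, with a change of -1.38 (SE 0.0722, adjusted p = 1.38e-10). P5 levels were thus below 50% of E12.5 levels in both genotypes, at 0.434 and 0.385 times the E12.5 level.

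Slit3 (chr11:35121224-35708507, + strand), the ligand that is also expressed widely outside the nervous system, had the lowest level of the 9 genes at E12.5. It was at 7.07, 5.52 and 5.98 CPM in E12.5 Chd8+/+ and 23.5, 22.1 and 21.4 CPM in P5 Chd8+/+ libraries. This was the largest rise, 1.85 (SE 0.144, adjusted p = 1.53e-08). Chd8+/- libraries had Slit3 at 5.16, 8.57 and 5.95 CPM and 16.8, 20.3 and 18.5 CPM, a change of 1.496 (SE 0.145, adjusted p = 1.89e-07). E12.5 Chd8+/- replicate 2 was again the highest of its group, and without it the change in Chd8+/- libraries was 1.73 (adjusted p = 4.49e-10). Slit2 and Slit3, the hosts of the miR-218-5p copies shown above, therefore changed in opposite directions.

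All 3 srGAP genes rose in both genotypes. Srgap1 (chr10:121780991-122047315, - strand), which encodes the srGAP known to inactivate Cdc42 downstream of Robo1, was at 75.9, 79.9 and 80.0 CPM in E12.5 Chd8+/+ and 121, 114 and 118 CPM in P5 Chd8+/+ libraries. Its log2FC was 0.59 (SE 0.0636, adjusted p = 6.74e-07), and 0.49 (SE 0.0639, adjusted p = 4.70e-06) in Chd8+/- libraries, which went from 80.8, 86.1 and 68.3 CPM to 109, 112 and 110.2 CPM. An annotated gene on the other strand shares exon sequence with Srgap1, and the same holds for Srgap3. The counting command recorded for the P5 table set no strand, so reads of such partners cannot be told apart.

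Srgap2 (chr1:131285251-131527352, - strand) acts on membrane protrusion, neuronal migration and spine maturation in the cortex, and it changed most within its family. It was at 123, 117 and 131 CPM in E12.5 Chd8+/+ and 284, 276.6 and 286 CPM in P5 Chd8+/+ libraries, with a log2FC of 1.19 (SE 0.0432, adjusted p = 1.99e-12). The Chd8+/- libraries were at 125, 126 and 122 CPM and 270.1, 278.2 and 275.97 CPM, with a change of 1.14 (SE 0.0432, adjusted p = 2.91e-12). The genotypes overlapped at both stages.

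Srgap3 (chr6:112717971-112947266, - strand), which is known to act on Rac1 in neurite outgrowth, had the highest level of all 9 genes. It was at 360.0, 336 and 364 CPM in E12.5 Chd8+/+ and 573, 557 and 587 CPM in P5 Chd8+/+ libraries, a log2FC of 0.70 (SE 0.0653, adjusted p = 1.31e-07). Its Chd8+/- libraries went from 352, 387 and 319 CPM to 529.9, 569.6 and 537 CPM, a change of 0.63 (SE 0.0653, adjusted p = 4.10e-07).

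**Figure D1:**
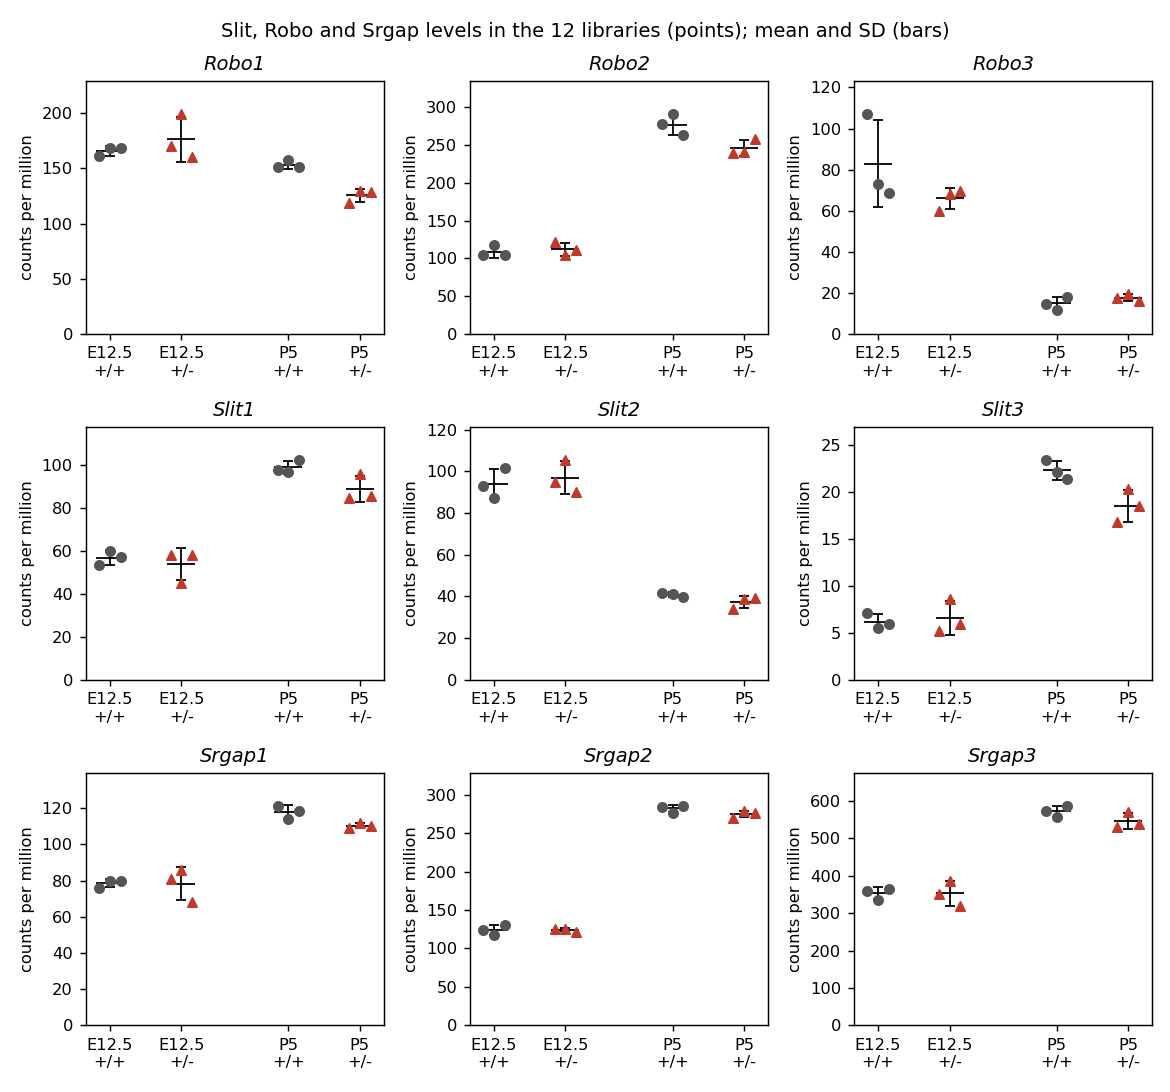
Level in CPM (vertical axes, from 0) of each of the 9 genes in the 3 libraries of each genotype and stage, as grey circles for Chd8+/+ and red triangles for Chd8+/-, with the mean and SD as black bars. Robo2, Slit1, Slit3 and the Srgap genes are higher at P5, Robo3 and Slit2 lower, and the P5 Chd8+/- libraries of Robo1, at 118 to 129.9 CPM, lie below the P5 Chd8+/+ libraries, at 151 to 158 CPM.

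**Figure D2:**
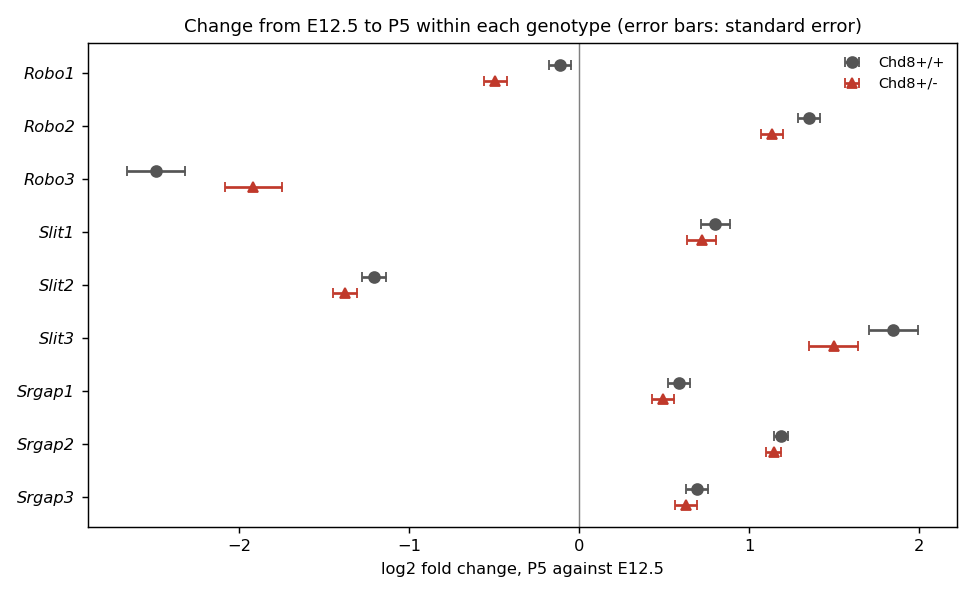
Log2FC from E12.5 to P5 (horizontal axis) of each gene in Chd8+/+ (grey circles) and Chd8+/- libraries (red triangles), with standard errors from edgeR. All 9 values have the same sign in both genotypes, although Robo1 did not pass the test in Chd8+/+ libraries, and they run from -2.49 for Robo3 to 1.85 for Slit3 in Chd8+/+ libraries.

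The offset for gene length moved the median log2FC of all genes by -0.26 in Chd8+/+ and -0.23 in Chd8+/- libraries. Relative to that shift the order of the genes was kept at its ends, with Robo3 at -2.72 and Slit3 at 1.60 in Chd8+/+ libraries, and no direction changed. In the same libraries Srgap1 went from 0.59 to 0.35 with the offset, Srgap3 from 0.70 to 0.46 and Slit1 from 0.80 to 0.55. Under the other scaling, RLE, the median moved by 0.042 in Chd8+/+ and 0.040 in Chd8+/- libraries.

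Levels of different genes were compared per kilobase of merged exons (CPM per kb). In E12.5 Chd8+/+ libraries the order was Srgap3 at 35.9 ± 1.55 CPM per kb (SD, n = 3), Robo1 at 21.9 ± 0.582, Robo3 at 12.3 ± 3.11, Srgap2 at 9.87 ± 0.535, Slit1 at 9.61 ± 0.590, Srgap1 at 8.61 ± 0.256, Robo2 at 6.58 ± 0.486, Slit2 at 3.69 ± 0.288 and Slit3 at 1.02 ± 0.132. The ranges of Robo3 and Srgap2 overlapped, as did those of Srgap2 and Slit1, and the other neighbours did not overlap. At P5, Srgap3 still led in Chd8+/+ libraries with 58.1 ± 1.53 CPM per kb, followed by Srgap2 at 22.5 ± 0.392, Robo1 at 20.3 ± 0.515, Robo2 at 16.8 ± 0.862, Slit1 at 16.7 ± 0.505, Srgap1 at 12.9 ± 0.402, Slit3 at 3.68 ± 0.170, Robo3 at 2.18 ± 0.461 and Slit2 at 1.60 ± 0.0468. Robo2 and Slit1 could not be ordered there, since their ranges overlapped. Robo3 thus moved from the third to the eighth place and Slit2 from the eighth to the ninth. Chd8+/- libraries gave the same places at E12.5 except for Robo3 and Srgap2, and at P5 except for Robo2 and Slit1. The ranges within each of these pairs overlapped. In Chd8+/- libraries the ranges of Robo3 and Slit1 and of Slit1 and Srgap1 also overlapped at E12.5, and those of Robo1 and Slit1 and of Slit3 and Robo3 at P5.

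The make-up of each family was compared between the 6 E12.5 and the 6 P5 libraries as the share of each gene in its family's summed level per kilobase. Robo1 made up the largest share of the Robo family at both stages, with Robo3 second at E12.5 and Robo2 second at P5. This order rests on the division by length, since in CPM Robo2 was second at E12.5, at 109 against 82.9 for Robo3 in Chd8+/+ libraries, and first at P5, at 277.3 against 153 for Robo1. In Chd8+/+ libraries, Robo1 made up 54.0 ± 4.44% of the summed Robo level at E12.5 and 51.7 ± 0.304% at P5 (SD, n = 3). Robo2 went from 16.2 ± 1.62% to 42.7 ± 1.33% and Robo3 from 29.9 ± 5.74% to 5.58 ± 1.29%. The summed Robo level itself was 40.8 ± 2.38 CPM per kb at E12.5 and 39.3 ± 0.889 at P5 in Chd8+/+ libraries, whose ranges overlapped, and 39.9 ± 2.47 and 34.1 ± 1.22 in Chd8+/- libraries.

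Slit1 made up the largest share of the Slit family at both stages when levels were divided by length. In CPM, Slit2 was the highest at E12.5, at 93.8 against 56.9 for Slit1 in Chd8+/+ libraries, and stayed above Slit3 at P5, at 40.7 against 22.3. The Slit1 share was 67.1 ± 2.68% in E12.5 Chd8+/+ and 76.0 ± 1.20% in P5 Chd8+/+ libraries. Per kilobase, Slit2 and Slit3 changed places, from 25.8 ± 1.93% to 7.27 ± 0.303% for Slit2 and from 7.15 ± 1.14% to 16.7 ± 0.908% for Slit3. The summed Slit level was 14.3 ± 0.442 CPM per kb at E12.5 and 22.0 ± 0.373 at P5 in Chd8+/+ libraries. The Chd8+/- sums were 13.98 ± 0.679 and 19.5 ± 1.35 CPM per kb, with no overlap between stages in either genotype.

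The Srgap family kept its order. Srgap3 made up 66.0 ± 0.757% of the summed Srgap level at E12.5 and 62.2 ± 0.362% at P5 in Chd8+/+ libraries, Srgap2 18.1 ± 0.353% and 24.0 ± 0.157%, and Srgap1 15.8 ± 0.806% and 13.8 ± 0.281%. Its summed level was 54.4 ± 2.00 and 93.5 ± 2.19 CPM per kb.

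In a two-sided exact permutation test of 6 against 6 libraries, adjusted over the 9 shares, the difference was 10.4 percentage points for Slit1, -19.2 for Slit2, 8.71 for Slit3, -2.15 for Srgap1, 6.04 for Srgap2 and -3.90 for Srgap3, each with p = 0.00216, the smallest this test can give, and adjusted p = 0.00244. The Robo shares include the P5 levels by which the family was chosen and are given without this test, with differences of 26.6 points for Robo2, -20.6 for Robo3 and -6.01 for Robo1. The Robo1 share overlapped between the stages, at 49.0 to 61.7% against 47.9 to 51.9%. Within a genotype, 3 against 3 libraries cannot go below an exact p of 0.10, and the Slit and Srgap shares each gave this value in both genotypes. The Robo1 difference was -2.29 points in Chd8+/+ and -9.73 points in Chd8+/- libraries. Shares of a family sum to 100%, so the 3 tests of a family are not independent. Merged exons cover all annotated transcripts of a gene, from 5.92 kb for Slit1 to 25.4 kb for Slit2. Without division by length, the differences kept their direction but were 25.96 points for Slit1, -35.2 for Slit2 and -14.7 for Robo1.

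**Figure D3:**
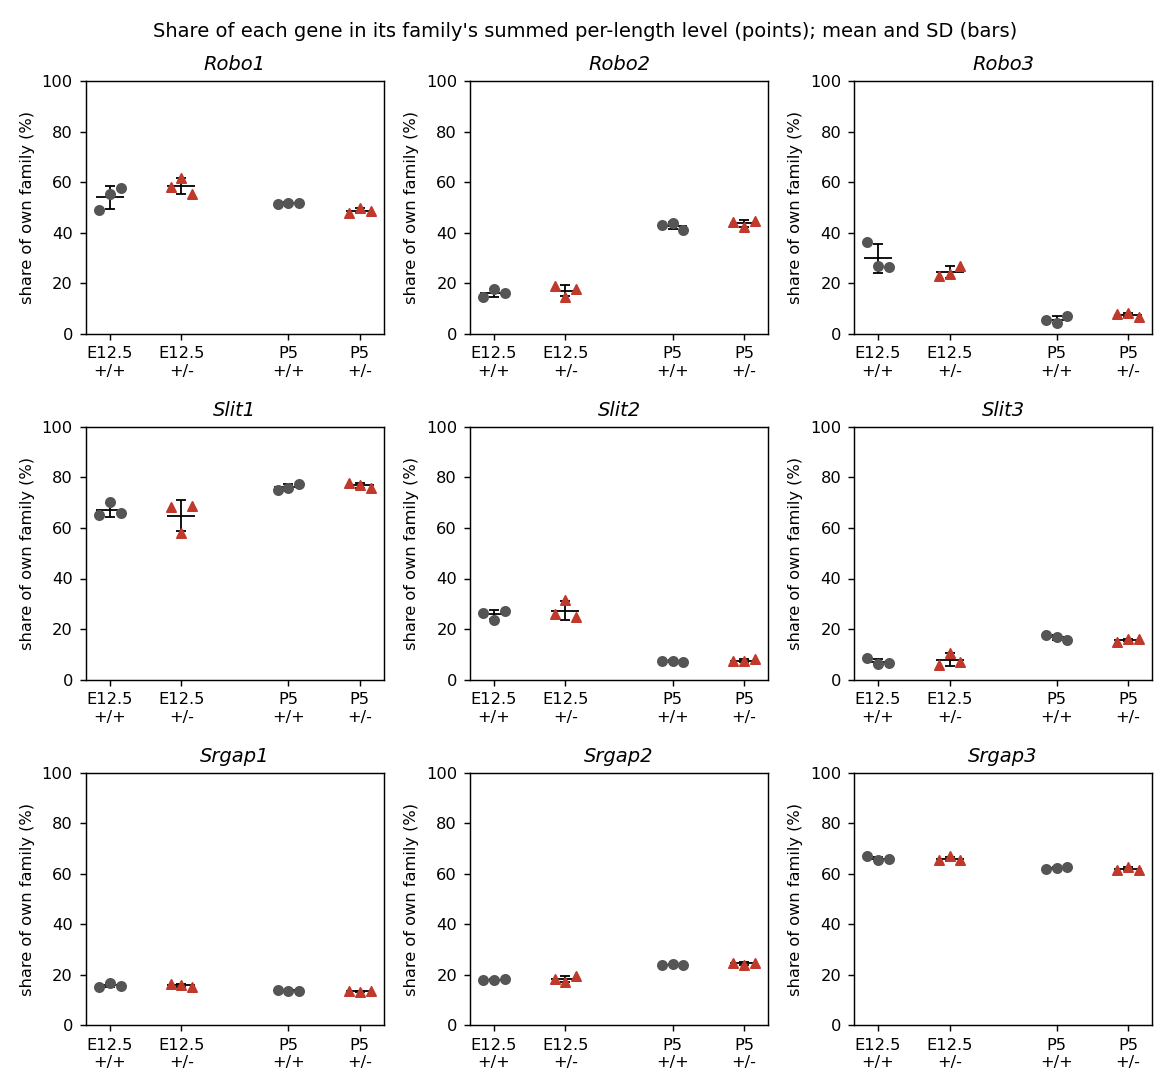
Share of each gene in the summed per-length level of its own family (vertical axes, 0 to 100%) in the 3 libraries of each genotype and stage, as grey circles for Chd8+/+ and red triangles for Chd8+/-, with the mean and SD as black bars. Robo3 goes from 22.9 to 36.5% at E12.5 to 4.33 to 8.22% at P5, while Robo2 goes from 14.5 to 19.0% to 41.2 to 44.8%.

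The second comparison was that of genotypes at E12.5. None of the 9 genes passed the test between Chd8+/+ and Chd8+/- libraries. edgeR called 0 of 9, against 0.00553% of 18081 genes tested, and DESeq2 0 of 9, against 0.0102%. At an unadjusted p under 0.05 edgeR gave 1 of 9, against 5.15% of all genes. No gene had all Chd8+/- libraries below or above all Chd8+/+ libraries, against 5.76% and 5.6% of all genes. The median log2FC of the 9 genes was 0.0033, and that of all genes 0.00058.

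Robo3 was at 82.9 ± 21.0 CPM (SD, n = 3) in E12.5 Chd8+/+ and 65.9 ± 5.29 CPM in E12.5 Chd8+/- libraries. Its log2FC was -0.33 (SE 0.147), with an edgeR adjusted p = 0.942 (unadjusted p = 0.0496). This was the value farthest from 0 among the 9 genes, but without E12.5 Chd8+/+ replicate 1 it was -0.11, and Slit3, at 0.19, and Slit1, at -0.13, lay farther from 0. The other receptors were at 166 ± 4.40 and 177 ± 20.3 CPM for Robo1 and 109 ± 8.02 and 112 ± 8.66 CPM for Robo2. The log2FC of Robo1 was 0.089 (SE 0.0726), and -0.0038 without E12.5 Chd8+/- replicate 2. That of Robo2 was 0.045 (SE 0.0698), and 0.0999 without that library.

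The ligands also depended on E12.5 Chd8+/- replicate 2, which had the highest Slit2 and Slit3 and the lowest Slit1 of the 6 E12.5 libraries. The log2FC of Slit1 was -0.080 (SE 0.0984) with it and 0.034 without it. Slit2 went from 0.045 (SE 0.0702) to -0.019. For Slit3 the values were 0.083 (SE 0.180) and -0.15. All 3, like Robo1, thus changed sign when this library was left out. The Srgap genes had a log2FC of -0.0044 (SE 0.0779) for Srgap1, 0.0033 (SE 0.0449) for Srgap2 and -0.0040 (SE 0.0712) for Srgap3. Without that library the values were -0.075, -0.0030 and -0.073.

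Several marker lists moved with this library. The summed level of 3 diencephalic markers (Gbx2, Lhx9 and Tcf7l2) was 114 to 119 CPM in Chd8+/+ libraries and 104 to 266 CPM in Chd8+/- libraries. Of 6 meningeal markers, led by collagen genes, 5 had a log2FC above 0, and their sum was 609 to 779 CPM against 507 to 1058 CPM. Of 7 choroid plexus markers 6 had a log2FC above 0, with sums of 91.9 to 150.5 and 138 to 170.2 CPM. The sum of 7 cortical markers was 896 to 950.2 CPM against 719.7 to 1015 CPM, and that of 8 GABAergic interneuron markers 630.3 to 653 CPM against 534 to 657 CPM. The highest diencephalic, meningeal and choroid plexus sums and the lowest cortical and interneuron sums were those of E12.5 Chd8+/- replicate 2. The choroid plexus list includes Otx2, at 73.2 CPM in that library against 46.8 to 52.0 CPM in the other E12.5 libraries. Clic6 was also highest in that library, at 21.7 CPM, but Ttr, at 64.4 CPM, was not. The lowest choroid plexus sum was that of E12.5 Chd8+/+ replicate 3, with Ttr at 28.4 CPM. All 6 endothelial markers had a log2FC below 0, 2 without overlap, with sums of 229.8 to 234 and 204 to 216 CPM, and there this library lay between the other Chd8+/- libraries. Of the 8 interneuron markers 6 had a log2FC below 0, 2 without overlap. Over all genes tested at E12.5, all Chd8+/- libraries lay below all Chd8+/+ libraries for 5.76%. The progenitor, striatal and Cajal-Retzius sums of E12.5 Chd8+/- replicate 2 lay within the range of the other E12.5 libraries. Of the Cajal-Retzius markers, Lhx1 was at 35.5 CPM in it against 11.5 to 15.1 CPM in the others. Lhx5 was at 26.1 against 10.7 to 15.8 CPM. The part of all these markers in the Slit and Robo1 values was not tested.

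The third comparison was that of genotypes at P5, the contrast from which the family was chosen. The levels of 8 of 9 genes were lower on average in Chd8+/- libraries, and Robo3 alone was higher, although with a gene length offset Srgap2 and Srgap3 were also above 0, at 0.052 and 0.0085 on the log2 scale. All Chd8+/- libraries lay below all Chd8+/+ libraries for Robo1, Robo2, Slit1, Slit2, Slit3 and Srgap1, 6 of 9 genes, against 14.8% of 18666 genes tested. No gene lay wholly above, against 8.55% of all genes. Since the family was picked on this contrast, nothing is read from these counts.

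Robo1 at P5 was at 151, 158 and 151 CPM in Chd8+/+ and 118, 129.9 and 128 CPM in Chd8+/- libraries, means of 153 ± 3.89 and 126 ± 6.24 CPM (SD, n = 3). The log2FC was -0.27 (SE 0.0422), and with each library left out it ran from -0.30 to -0.23. Robo2 was at 277.3 ± 14.2 and 246 ± 11.02 CPM, a log2FC of -0.16 (SE 0.0472), which was -0.071 with an offset for gene length. Robo3, at 14.8 ± 3.12 and 17.5 ± 1.70 CPM, had a log2FC of 0.26 (SE 0.132), and its libraries overlapped. This value was 0.12 without P5 Chd8+/+ replicate 2 and 0.43 without P5 Chd8+/+ replicate 3.

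Of the ligands, Slit3 differed most. It was at 22.3 ± 1.03 CPM in Chd8+/+ and 18.6 ± 1.73 CPM in Chd8+/- libraries, a log2FC of -0.25 (SE 0.0726). Slit1 was at 99.1 ± 2.99 and 88.7 ± 6.07 CPM, with -0.14 (SE 0.0479). For Slit2, at 40.7 ± 1.19 and 37.2 ± 2.80 CPM, the log2FC was -0.11 (SE 0.0572), -0.014 with the length offset and -0.052 without P5 Chd8+/- replicate 1. The lowest Chd8+/+ library of Slit2, at 39.4 CPM, and the highest Chd8+/- library, at 39.2 CPM, all but met.

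Among the Srgap genes at P5, Srgap1 was at 118 ± 3.67 and 110.3 ± 1.42 CPM, with a log2FC of -0.082 (SE 0.0356), and -0.023 with the length offset. Srgap2 had -0.023 (SE 0.0352) and Srgap3 -0.054 (SE 0.0404), and both had overlapping libraries. With each library left out, Srgap2 ran from -0.038 to -0.0067 and Srgap3 from -0.085 to -0.028. With the length offset these became 0.052 for Srgap2 and 0.0085 for Srgap3, so their direction depended on that choice.

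**Figure D4:**
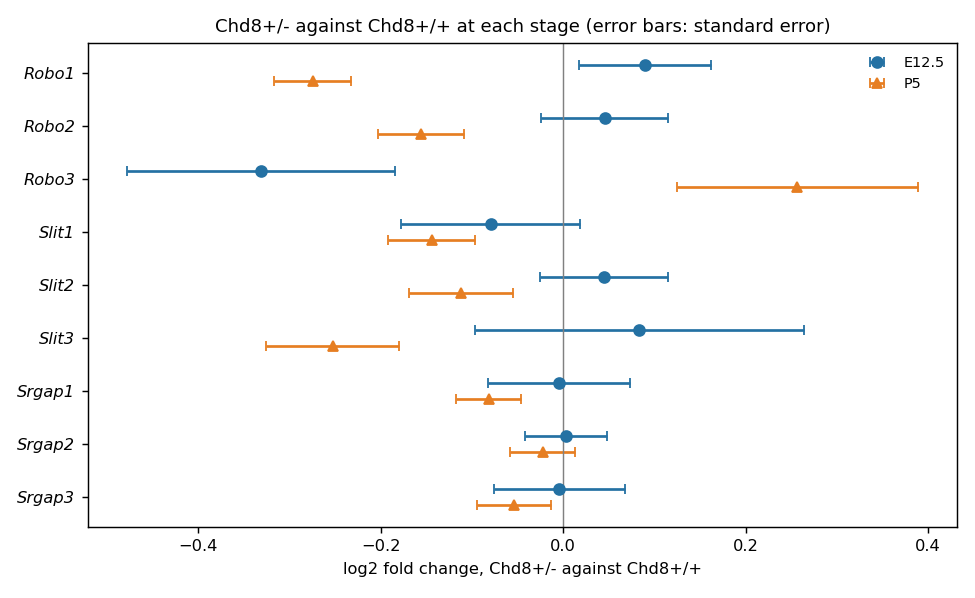
Log2FC of Chd8+/- against Chd8+/+ libraries (horizontal axis) of each gene at E12.5 (blue circles) and P5 (orange triangles), with standard errors from edgeR. At P5 the values run from -0.27 for Robo1 to 0.26 for Robo3, and at E12.5 from -0.33 for Robo3 to 0.089 for Robo1.

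Most markers of choroid plexus, striatum, endothelium and interneurons also had lower levels in the P5 Chd8+/- libraries, while 5 of 6 meningeal markers had higher ones. All 7 choroid plexus markers (among them Ttr, Folr1, Clic6 and Otx2) had log2FC values below 0, and 6 had no overlap. Their summed level was 445 to 577 CPM in Chd8+/+ and 324 to 383 CPM in Chd8+/- libraries. Over all genes tested at P5, all Chd8+/- libraries lay below all Chd8+/+ libraries for 14.8% and above for 8.55%. All 5 striatal markers (among them Ppp1r1b and Drd1) were lower without overlap, with sums of 186 to 201 and 143 to 166 CPM. Of 6 endothelial markers 5 were lower, 4 of them without overlap, with sums of 204 to 232 and 183 to 203 CPM. Of 8 GABAergic interneuron markers 7 were lower, 3 of them without overlap, with sums of 638 to 655 and 548 to 615 CPM. Of 5 Cajal-Retzius markers 3 were lower, 1 of them without overlap, and 2 were higher, with sums of 368 to 375 and 314 to 335 CPM. The diencephalic sum was 13.2 to 30.1 CPM in Chd8+/+ and 10.4 to 12.4 CPM in Chd8+/- libraries, the highest value being that of P5 Chd8+/+ replicate 1, and the meningeal sum 284 to 316 and 271 to 352 CPM. Of 3 diencephalic and of 6 meningeal markers, 1 each was lower without overlap. Of 6 progenitor markers 5 were lower, 3 of them without overlap, and 1 was higher without overlap. The progenitor sums were 206 to 228 and 198 to 208 CPM at P5. Of 7 cortical markers 4 were lower, 2 of them without overlap, and 3 were higher, with sums of 844 to 909.5 and 832 to 839 CPM. edgeR called none of these markers after adjustment, against 0.00536% of all genes. The choroid plexus, striatal, endothelial and interneuron markers were mostly lower where Robo1, Robo2 and Slit levels were lower, and the meningeal markers mostly higher. The part of these markers in those levels was not tested.

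The difference of the genotype effects between the stages contains the P5 contrast and is likewise given without a test. It was -0.38 (SE 0.0920) for Robo1 on the log2 scale, and -0.28 without E12.5 Chd8+/- replicate 2. For Robo2 it was -0.22 (SE 0.0916), for Robo3 0.57 (SE 0.231) and for Slit3 -0.35 (SE 0.203), the last at -0.11 without that library. The remaining genes had Slit2 at -0.17 (SE 0.1005), Srgap1 at -0.094 (SE 0.0900), Slit1 at -0.081 (SE 0.117), Srgap3 at -0.066 (SE 0.0920) and Srgap2 at -0.042 (SE 0.0603). Without that library they were -0.099, -0.012, -0.18, 0.013 and -0.026 in the same order, and Srgap3 thus changed sign. When single libraries were left out, the range was -0.27 to -0.14 for Robo2, 0.37 to 0.74 for Robo3, -0.18 to 0.0033 for Slit1 and -0.074 to 0.0078 for Srgap2. Robo2 was nearest to 0 without E12.5 Chd8+/- replicate 1 and Robo3 without E12.5 Chd8+/+ replicate 1. Slit1 was above 0 without E12.5 Chd8+/- replicate 3, and Srgap2 without E12.5 Chd8+/+ replicate 2. With the length offset Robo2 was at -0.12, Slit2 at -0.066, Slit1 at -0.028, Srgap1 at -0.015, Srgap2 at 0.047 and Srgap3 at 0.014.

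A list of 32 other genes of the pathway was also followed, with Robo4, the heparan sulfate proteoglycans and other surface proteins that bind Slits or Robos, and the Abl, Ena/VASP, Pak, Nck, Sos and small GTPase genes that act below the receptors. All 32 were tested. From E12.5 to P5, 15 rose, 14 fell and 3 did not pass (Abl2, Nck2 and Pak3) in Chd8+/+ libraries, against 41.4% higher and 41.7% lower of all genes, shares near those of the list. The median log2FC was 0.049 against -0.018 over all genes. Among the same genes in Chd8+/- libraries, 13 rose, 14 fell and 5 did not pass (Abl2, Nck2, Pak3, Cap1 and Usp33), against 41.3% higher and 41.6% lower of all genes, with medians of -0.057 and -0.0046. The 3 genes that changed most in Chd8+/+ libraries encode surface or secreted proteins. Sdc3, a syndecan of neurons, rose from 137 ± 7.67 to 1093 ± 19.97 CPM (SD, n = 3), a log2FC of 3.00 (SE 0.0608, adjusted p = 4.37e-15). Nell2, a secreted ligand of Robo3, rose from 144 ± 12.2 to 546 ± 14.5 CPM, a log2FC of 1.93 (SE 0.0600, adjusted p = 3.48e-13). Sdc1 fell from 66.2 ± 1.14 to 17.7 ± 1.27 CPM, a log2FC of -1.90 (SE 0.0623, adjusted p = 6.14e-13). Flrt3, a Robo1 co-receptor in thalamic axons, was among the first 3 with Sdc3 and Sdc1 in Chd8+/- libraries, and fell from 119 ± 4.23 to 32.0 ± 0.698 CPM, a log2FC of -1.90 (SE 0.0463, adjusted p = 2.62e-14).

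Between genotypes, no gene of this list was called by edgeR at either stage, against 0.00553% of all genes at E12.5 and 0.00536% at P5. At E12.5, DESeq2 called 0, against 0.0102% of all genes, and edgeR gave 4 of 32 at an unadjusted p under 0.05 (Cap2, Evl, Pak1 and Robo4), against 5.15%. The largest differences were Robo4 at -0.25 (SE 0.0834), Cap2 at 0.25 (SE 0.0720) and Pak1 at 0.16 (SE 0.0545) on the log2 scale, each with an adjusted p of 0.942 from edgeR. At P5, DESeq2 called 1 (Usp33), against 5.28% of all genes, and edgeR gave 7 of 32 at an unadjusted p under 0.05, against 17.8%. The largest differences were Robo4, the endothelial Robo, at -0.24 (SE 0.101, adjusted p = 0.249), Usp33, a deubiquitinase of Robo1, at -0.22 (SE 0.0531, adjusted p = 0.116) and Nck1, an adaptor protein, at -0.14 (SE 0.0857, adjusted p = 0.426). Usp33 was at 83.8 ± 6.75 CPM in Chd8+/+ and 71.2 ± 2.29 CPM in Chd8+/- libraries (SD, n = 3), without overlap.

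The 9 genes were also compared with each other around the mean of each stage, over the same 12 libraries, which share their scaling and depth range. The deviations from a stage mean include the genotype difference at P5 by which the family was chosen, so that difference enters every Pearson r below, and the values are a description. The pair with the highest value was Srgap1 and Srgap3, with r = 0.82, and 0.74 without E12.5 Chd8+/- replicate 2, when Slit2 and Srgap2 were highest, with r = 0.80 (0.77 over 12 libraries). Robo1 and Slit1 went from 0.039 to 0.78 when it was left out, and Robo1 and Slit2 from 0.78 to 0.71. The lowest value was that of Robo2 and Robo3, at -0.68, and -0.75 without that library. Among all genes, those whose pattern around the stage means was most like that of Robo1 were Otx2 (r = 0.95), Kif21a (r = 0.94) and 9330182L06Rik (r = 0.94), over 12 libraries, and r was 0.93 to 0.94 for these 3 without that library. Otx2, a choroid plexus and diencephalic transcription factor, was at 73.2 CPM in E12.5 Chd8+/- replicate 2 against 46.8 to 52.0 CPM in the other E12.5 libraries, and at 2.32 to 2.48 CPM in P5 Chd8+/+ against 1.03 to 1.55 CPM in P5 Chd8+/- libraries. For Slit1 the nearest genes were Serpinb2 (r = 0.95), Bcl11b (r = 0.94), a transcription factor of deep-layer cortical and striatal neurons, and Epha4 (r = 0.92), which had r = 0.94, 0.87 and 0.84 without that library. For Srgap3, Arhgap21 (r = 0.93) and Sdk2 (r = 0.91) were among them, with r = 0.90 and 0.91 without it.

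The 2 sequencing runs of each library gave a measure of the counting and sequencing error of these levels. The SD between runs on the log2 scale was between 0.0132 for Srgap3 and 0.0964 for Slit3, and the SD between libraries of a group between 0.0440 for Srgap2 and 0.249 for Robo3. For every one of the 9 genes the spread between libraries was larger than that between runs. The largest difference between the runs of 1 library was 23.8%, for Slit3, the gene with the fewest counts at E12.5, and at most 12.04% for any other gene.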

How the data were processed

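The authors trimmed paired-end reads with Trim Galore 0.4.1, aligned them to GRCm38.p4 with TopHat2 2.1.0 and counted them on Ensembl genes with featureCounts 1.5.0, per the labels and file headers. The deposited values are raw counts per gene and sequencing run, and the deposited gene lengths are merged exon lengths. The libraries mark strand by dUTP. The P5 counting command sets no strand, and that for E12.5 is not given in the sources used here. No column of per-sample values was left out (0 columns).

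The 2 runs of a library were summed (38774591 to 54695236 counts per library). Genotypes were compared within stages, and stages and their interaction over 12 libraries, with edgeR 4.0.16 under R 4.3.3 (TMM, filterByExpr, quasi-likelihood test, Benjamini-Hochberg adjustment over all genes tested, threshold 0.05). Depth limits Slit3 most at E12.5, where its lowest count was 202. At P5 the lowest count was 514, for Robo3. Alternatives were DESeq2 1.42.0, limma-voom (limma 3.58.1), RLE scaling, all genes with at least 1 count, a loess offset for gene length (span 0.5), 1 fit of all libraries, single runs, a replicate block and each library left out. A term for the libraries with high Xist counts, and co-variation without E12.5 Chd8+/- replicate 2, were added after seeing the data. The procedure was also run on simulated data, whose outcome is not reported here and is not used to back any result. Shares were tested with an exact permutation test (scipy 1.17.1). Named were all 9 members, the 3 pathway genes with the largest change in each comparison, and the 3 genes most like Robo1 and the highest Slit and Srgap, of which 1 for Srgap3 is not reported here. The members and gene lists were chosen with earlier results of these data known. Promoter and microRNA sequences are from RefSeq (GRCm38.p6), and 3′ UTRs from GENCODE M21.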

Additional observations from a re-analysis of the deposited data

How the results depend on the processing

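No member was called at E12.5 under any alternative. The changes between stages kept their direction under all alternatives, and all 6 Slit and Srgap shares passed with either sequencing run alone, without division by length and with each library left out. For Robo1 in Chd8+/+ libraries, the fall passed without E12.5 Chd8+/+ replicate 1 or E12.5 Chd8+/- replicate 2. It also passed with the length offset (-0.35), which moved the median of all genes by -0.26. The family was chosen on the P5 genotype contrast, so calls of members there are not counted under any alternative. Over all genes, the P5 calls were 1 of 18666 by edgeR and 653 of 12362 by DESeq2. They were 995 of 31265 with all genes of at least 1 count and 327 of 19044 without P5 Chd8+/- replicate 2. The cause was not tested. At E12.5 they were 1 of 18081, 3 of 29352 by DESeq2, and 13 of 29365 with all genes of at least 1 count.

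At E12.5, log2 fold changes near 0 changed sign. Srgap2 was -0.0033 with all genes of at least 1 count and -0.025 with the second run only, Srgap1 0.014 with the first run only and Srgap3 0.019 with the second run only. With each library left out, the ranges were -0.0038 to 0.15 for Robo1, -0.013 to 0.11 for Robo2, -0.14 to 0.034 for Slit1, -0.019 to 0.10 for Slit2, -0.15 to 0.23 for Slit3, -0.075 to 0.085 for Srgap1, -0.029 to 0.043 for Srgap2 and -0.073 to 0.062 for Srgap3. The cause was not tested.

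Same-numbered libraries correlated at -0.16, -0.064 and -0.049 at E12.5 and at 0.19, 0.078 and 0.038 at P5. At P5, 5 of 6 libraries correlated best with their own number, and at E12.5, 0 of 6. The P5 libraries with high Xist counts were replicate 1 of each genotype, at 1025 CPM in Chd8+/+ and 835 CPM in Chd8+/-. The numbers were not taken as pairs in the main fits, and whether they mark pairs was not settled. With a replicate block, 0 members were called between genotypes at E12.5. Over all genes the replicate block gave 0 calls at E12.5 and 4 at P5. The term for high Xist counts changed no member's call at E12.5 or between the stages. Depth limits Slit3 most at E12.5, and at P5 the lowest count was that of Robo3.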
